A study of Mus musculus with 4 samples.

Results

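Integrins are paired receptors, each made of an alpha and a beta chain, that hold cells to matrix proteins or to other cells. Leukocytes carry the integrins of the beta chain Itgb2 (CD18), which bind ICAM molecules on vessel walls and complement fragments, whereas fibroblasts, muscle, vessels and epithelium carry mainly chains that bind collagen, laminin, fibronectin and other matrix proteins. Talins and kindlins bind the tail of the beta chain inside the cell and switch the receptor on, and vinculin and Ilk tie it to actin. In the gut wall these molecules let leukocytes leave the blood and anchor the stroma to its matrix. The set described here holds 31 genes, 21 integrin chains with 6 adaptors, 3 junctional adhesion molecules and a selectin ligand, taken by symbol from a table of 48526 mouse gene identifiers. The genes were listed by symbol and role, with earlier results of these data known. All 31 were found, and all 31 passed the minimum mean level for testing.

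RNA was measured in mononuclear cells of the lamina propria, the tissue beneath the lining of the gut, after mice had been given CD4 cells. In 2 samples, called DKO, the transferred cells lacked Hobit and Blimp, a pair of transcriptional repressors, and the labels describe mild colitis. In the other 2 samples, called WT, wild-type cells were transferred, and colitis is labelled as pronounced. The genotype is thus that of the transferred cells only, and the sources used here give no strain, age or genotype of the recipients. Each group is described as 2 biological replicates, with no word on separate animals. A p-value here covers only the spread among the 4 samples, which may not be the spread among animals. Genotype of the transferred cells and degree of colitis cannot be told apart in this design.

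Values are rlog, the regularized log2 expression of DESeq2, in which differences are shrunken, above all for genes with few reads. The depth of the libraries is unknown. Every difference below is DKO minus WT on the rlog scale, with the SE of the fit. In bulk RNA, fewer cells of a type and less RNA per cell cannot be told apart. Of the deleted genes, Zfp683 (Hobit) stood at 3.29 and 3.38 in the DKO samples and at 3.53 and 3.81 in the WT samples, under the minimum mean of 4, and Prdm1 (Blimp-1) at 11.37 and 11.43 in DKO against 11.53 and 11.43 in WT. As the sources do not say which part of either gene was deleted, these values cannot test the labels. Among markers of the cells such a preparation can hold, 9 of 9 of T cells reached the level for testing, while 1 of 7 of B and plasma cells did, with Pax5 listed at 0. Epithelial markers were also present, with all 10 tested.

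The stretches of DNA before the start of 5 genes are shown because these genes give the contrasts that the results turn on: a pair of neighbouring leukocyte alpha chains, the stromal kindlin with vinculin, and the kindlin of blood cells. They are from RefSeq (GRCm38.p6), read 5′ to 3′ on the strand of the gene, and exclude annotated exons. Capitals mark GAGGAA or its complement TTCCTC (the box of the myeloid and lymphoid factor PU.1), GGAATG or CATTCC (the element of TEAD factors) and the CArG box of serum response factor.
Itgam, chr7:128062390-128062639, forward strand: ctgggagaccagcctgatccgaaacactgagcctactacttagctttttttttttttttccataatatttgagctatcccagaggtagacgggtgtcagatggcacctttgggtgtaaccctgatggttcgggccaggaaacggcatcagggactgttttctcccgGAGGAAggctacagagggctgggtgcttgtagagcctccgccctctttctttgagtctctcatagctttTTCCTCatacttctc
Itgax, chr7:128129300-128129546, forward strand: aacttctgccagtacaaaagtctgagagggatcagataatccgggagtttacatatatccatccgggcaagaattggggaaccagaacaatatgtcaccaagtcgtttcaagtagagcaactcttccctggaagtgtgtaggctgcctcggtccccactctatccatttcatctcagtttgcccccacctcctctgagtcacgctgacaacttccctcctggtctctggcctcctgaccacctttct
Fermt2, chr14:45530119-45530315, reverse strand: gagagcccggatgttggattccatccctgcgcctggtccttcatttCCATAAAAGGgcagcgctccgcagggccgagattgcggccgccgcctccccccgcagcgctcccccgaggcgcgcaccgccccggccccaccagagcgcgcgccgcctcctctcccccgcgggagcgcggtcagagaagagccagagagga
Vcl, chr14:20929148-20929397, forward strand: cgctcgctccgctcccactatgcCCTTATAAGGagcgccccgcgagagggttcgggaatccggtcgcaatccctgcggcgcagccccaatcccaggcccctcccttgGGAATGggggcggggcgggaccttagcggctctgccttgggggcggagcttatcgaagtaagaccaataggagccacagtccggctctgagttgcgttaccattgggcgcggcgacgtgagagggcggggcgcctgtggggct
Fermt3, chr19:7019470-7019719, reverse strand: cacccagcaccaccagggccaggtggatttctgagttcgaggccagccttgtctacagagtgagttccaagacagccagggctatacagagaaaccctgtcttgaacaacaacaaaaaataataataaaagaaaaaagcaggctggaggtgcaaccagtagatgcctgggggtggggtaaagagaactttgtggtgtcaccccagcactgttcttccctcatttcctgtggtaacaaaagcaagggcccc
The Itgam stretch held the PU.1 box 2 times, and the Itgax and Fermt3 stretches held none of the 3 motifs. Fermt2 and Vcl each held a CArG box, and Vcl also a TEAD element. Over the whole RefSeq windows, which run a little past the start, 28.3% of all 32851 RefSeq promoters had the PU.1 box on either strand, 14.7% the TEAD element and 1.63% a CArG box. The 20 genes of the set with an entry had 23 windows. By gene, with a match in any window, 10 had the PU.1 box, 2 the TEAD element (Vcl and Itgb1) and 3 a CArG box (Fermt2, Vcl and Itgb6). The shares over all promoters are by window, so the counts by gene are not like for like with them. A match is a description of letters and shows no binding.

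In the DKO samples, 10 of the 31 genes were higher and 1 was lower, and these fell into different roles. The higher genes were alpha chains for matrix (Itga7, Itga8, Itga9 and Itga11), their common partner Itgb1, the adaptors Fermt2, Tln2 and Vcl, and the junctional molecules Jam2 and Jam3. The lower gene was Itgam, the alpha chain of Mac-1 on neutrophils and monocytes. The other chains of the Itgb2 integrins in the set (Itgal, Itgax, Itgad and Itgb2) did not pass the test. Calls are at an adjusted p under 0.05 in limma with Benjamini-Hochberg adjustment over all 13528 tested genes, of which 9.92% were higher and 4.85% lower. The median difference over the set was 0.16, against -0.022 over all tested genes. Both DKO samples lay above both WT samples for 16 genes of the set, against 25.0% of all tested genes, and below them for 4, against 30.3%, so that 20 of the 31 did not overlap in either direction, against 55.3% of all tested genes. Of the 11 calls, 7 held in each of the 4 fits without a single sample (Itgam, Itga8, Itga11, Tln2, Fermt2, Jam2 and Jam3), and with no minimum level 0 of the 31 genes passed, 13 having an unadjusted p under 0.05.

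**Figure D1:**
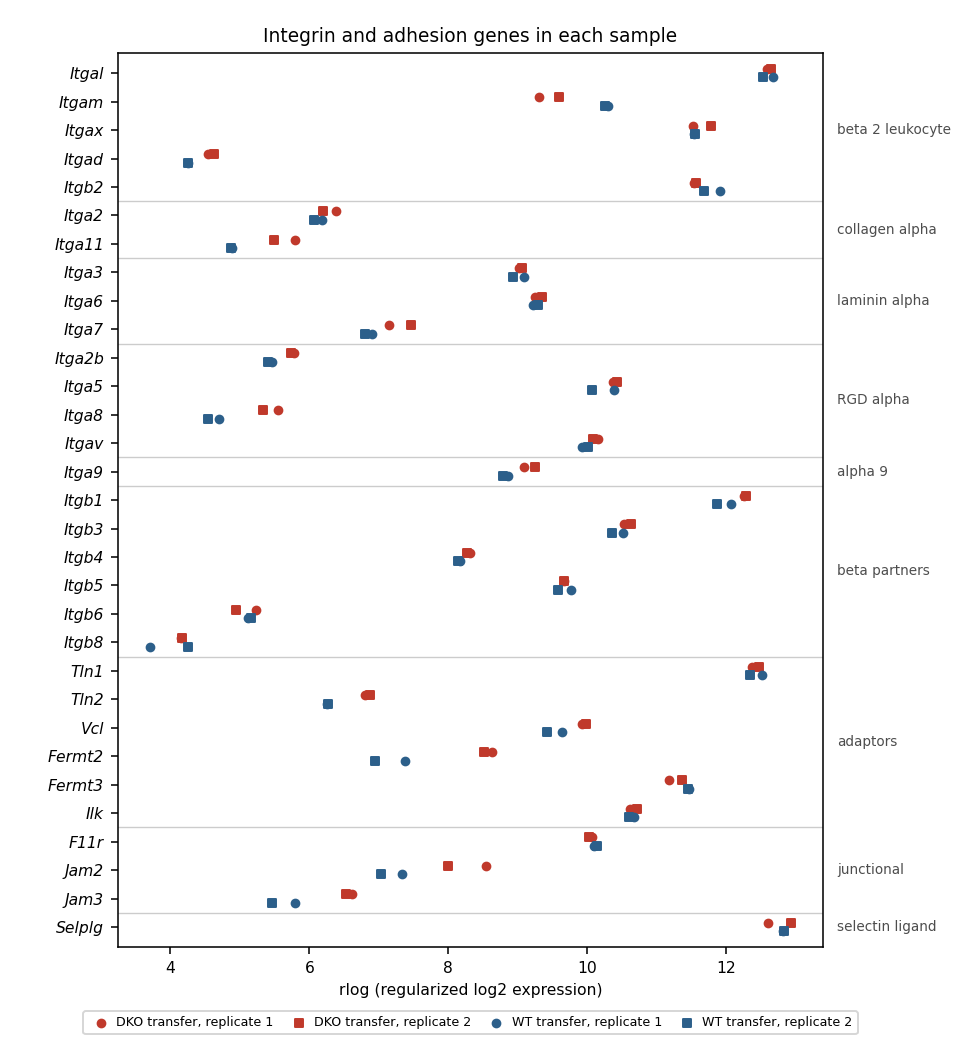
Rlog (x axis) of the 31 genes (y axis, grouped by role) in each sample, with red for DKO transfer and blue for WT transfer, circles for replicate 1 and squares for replicate 2. The red points lie to the right of the blue ones for Fermt2, Jam2 and Jam3, to the left for Itgam, and among them for Itgal and Tln1.

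**Figure D2:**
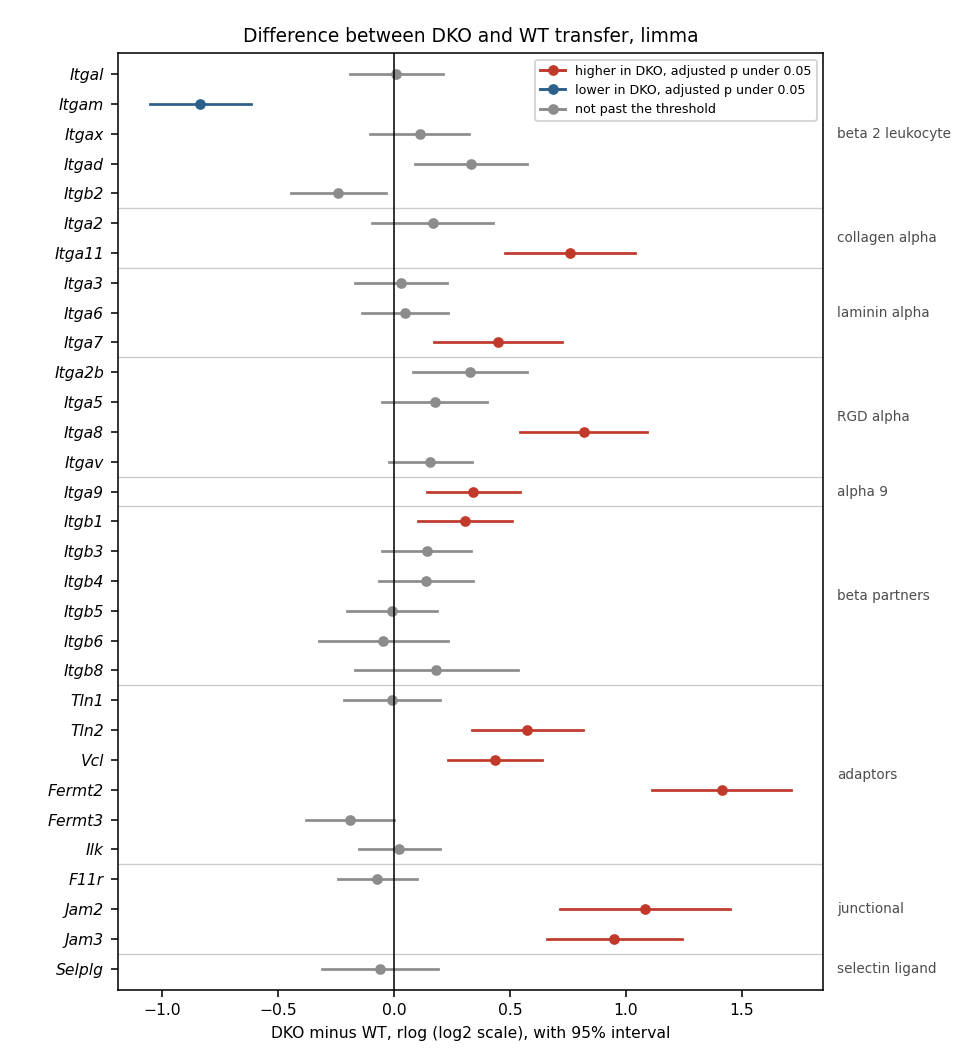
Difference of DKO minus WT in rlog (x axis, log2 scale) for the 31 genes (y axis, grouped by role), with the 95% interval of the limma fit as a bar. Red marks the 10 genes called higher, blue the 1 called lower and grey the 20 that did not pass; Fermt2 has the largest difference of the set (1.41) and Itgam the lowest (-0.84).

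Among the chains of the Itgb2 integrins, Itgam moved apart from its relatives. Itgam (CD11b, ENSMUSG00000030786, GRCm38 chromosome 7, 128062640 to 128118491) pairs with Itgb2 to form complement receptor 3, by which phagocytes take up opsonized particles. It stood at 9.30 and 9.59 in the DKO samples and at 10.30 and 10.26 in the WT samples. Both DKO values lay below both WT values, and the difference of -0.84 (SE 0.0988, adjusted p = 0.00019 in limma) is a fold of 0.56. Itgal (CD11a), the alpha chain of LFA-1 on T cells and other leukocytes, had 12.58 and 12.64 in DKO against 12.67 and 12.52 in WT. Its groups overlapped, with a 95% interval of the difference from -0.19 to 0.21. Itgax (CD11c), a chain of dendritic cells and many gut macrophages, had 11.51 and 11.78 in DKO and 11.53 and 11.54 in WT (95% interval -0.10 to 0.33). The shared partner Itgb2 was at 11.53 and 11.56 in DKO and at 11.90 and 11.67 in WT, a difference of -0.24 that did not pass (adjusted p = 0.118 in limma), although the groups did not overlap. Itgad (CD11d), a low gene here, was at 4.54 and 4.63 in DKO and at 4.25 and 4.26 in WT, and did not pass either (0.33, adjusted p = 0.0704 in limma), but did without the variance trend (adjusted p = 0.0397).

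Itgam, Itgax and Itgad lie next to each other on the forward strand of chromosome 7, with gaps of 11.1 kb and 3.72 kb, and Itgal lies 727.5 kb before Itgam. Within a sample, rlog of Itgam minus that of Itgax was -2.21 and -2.20 in the DKO samples, against -1.23 and -1.29 in the WT samples. This difference between neighbours changed by -0.95, and that of Itgam minus Itgb2 by -0.59. The values within a sample are not per length, so only these changes between the groups are to be read. A fact of the annotation bears on the level of Itgam: in GENCODE vM21, 68.7% of its exon bases also belong to Gm49368, a gene on the same strand, which the table lists at 0 in all 4 samples. The sources do not say how the authors counted reads over such shared bases, so the level of Itgam should not be set beside those of other chains, while its comparison between samples uses the same bases throughout.

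Markers of neutrophils and monocytes moved with Itgam. The marker lists were chosen with earlier results of these data known, so their counts are no independent support. Of all tested genes 4.85% were lower. All 13 neutrophil markers were lower in DKO, among them Lcn2 (-1.25) and the lactoferrin gene Ltf (-2.22), and the summed level of the list (log2 of the sum of unlogged rlog values) was 14.35 to 14.82 in DKO against 15.90 to 15.99 in WT. Of 12 monocyte and macrophage markers 8 were lower and 0 higher, led by Chil3 (-1.5) and Ly6c2 (-0.85), with a summed level of 14.73 to 14.76 in DKO and of 15.11 in both WT samples. No marker of these 2 lists was listed at 0. None of the 9 T cell markers passed in limma (median -0.16, and Bcl11b, at -0.27 and an adjusted p = 0.0819, had the smallest p). All 9 had a negative difference, as had 7484 of the 13528 tested genes. Both DKO samples lay below both WT samples for 5 of the 9, against 30.3% of all tested genes. The summed level of the T cell list was 14.69 to 14.84 in DKO and 14.87 to 14.96 in WT. The part of these cells in the result for Itgam was not tested. Selplg, the ligand of P-selectin on leukocytes, stood at 12.59 and 12.93 in DKO and at 12.81 and 12.83 in WT, with overlapping groups (-0.061, adjusted p = 0.8 in limma).

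The alpha chains for matrix proteins lay on the other side. All 10 had a positive difference, from 0.03 to 0.82, and 4 passed as higher. Of all 13528 tested genes, 6044 had a positive difference and 9.92% were higher. The groups overlapped for 3 of the 10 (Itga3, Itga5 and Itga6). Itga8 (ENSMUSG00000026768, chromosome 2, 12106632 to 12301922), a receptor for nephronectin and other ligands that smooth muscle and fibroblasts carry, stood at 5.55 and 5.33 in DKO and at 4.70 and 4.54 in WT. The difference was 0.82 (SE 0.124, adjusted p = 0.000954 in limma), a fold of 1.76. Itga11, the fibroblast receptor for fibrillar collagen, had 5.79 and 5.49 in DKO against 4.89 and 4.87 in WT. Its difference of 0.76 (SE 0.127, adjusted p = 0.00179 in limma) is a fold of 1.69, and neither chain had overlapping groups. Both are low genes, where rlog shrinks differences most. Itga7, a laminin receptor of muscle, was at 7.14 and 7.46 in DKO and at 6.91 and 6.79 in WT (0.45, adjusted p = 0.0348 in limma), and Itga9, which binds tenascin C and Vcam1, at 9.08 and 9.25 in DKO and at 8.86 and 8.78 in WT (0.34, adjusted p = 0.0273 in limma). Their groups did not overlap, but both calls turned on single samples: Itga7 passed in 1 and Itga9 in 1 of the 4 fits without a sample, with differences of 0.29 to 0.60 and 0.26 to 0.42. Itga7 also did not pass with quantile normalization (0.36, adjusted p = 0.117 in limma).

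The other 6 matrix alpha chains did not pass. Itga2, the collagen receptor of epithelium and platelets, differed by 0.17 (95% interval -0.096 to 0.43). The laminin receptors of epithelium and other cells, Itga3 and Itga6, differed by 0.03 and 0.05, with intervals from -0.17 to 0.23 and from -0.14 to 0.23. Their groups overlapped. The fibronectin receptor chain Itga5 was at 10.37 and 10.42 in DKO and at 10.38 and 10.06 in WT, and Itgav, partner of several beta chains, at 10.16 and 10.09 in DKO and at 9.92 and 10.01 in WT, an interval of the difference from -0.022 to 0.33. Itga2b, the alpha chain of the platelet fibrinogen receptor, differed by 0.33 (adjusted p = 0.0772 in limma), with both DKO samples, at 5.78 and 5.74, above the WT samples, at 5.46 and 5.40. Without the variance trend Itga2b passed (adjusted p = 0.0403). Of 9 platelet markers 2 were tested: Pf4 was lower (-0.83), Gp1bb did not pass (-0.097, adjusted p = 0.642), and Gp9 was listed at 0. The summed level of the list was 6.66 to 7.07 in DKO and 7.37 to 7.59 in WT, and its part in the value of Itga2b was not tested.

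Among the 6 beta chains of the set other than Itgb2, only Itgb1 passed. Of all tested genes 14.8% passed in either direction. Itgb1 (ENSMUSG00000025809, chromosome 8, 128685654 to 128733200), the partner of Itga7, Itga8, Itga9 and Itga11 and of most receptors for collagen, laminin and fibronectin, was at 12.25 and 12.27 in DKO and at 12.06 and 11.86 in WT. The difference of 0.30 (SE 0.0917, adjusted p = 0.0473 in limma) is a fold of 1.24 and lies near the threshold. It did not pass without WT replicate 2 (0.20, adjusted p = 0.505 in limma), with median centring (adjusted p = 0.0501 in limma), without the variance trend (adjusted p = 0.083) or with a minimum mean rlog of 6 (adjusted p = 0.0505). Itgb3, the partner of Itgav and Itga2b, differed by 0.14 (95% interval -0.05 to 0.33), and Itgb4, the laminin-binding chain of hemidesmosomes, by 0.14 (95% interval -0.064 to 0.34). Itgb5 differed by -0.0096 (95% interval -0.20 to 0.19). Itgb6, a chain of epithelium that activates TGF-beta with Itgav, was at 5.24 and 4.95 in DKO and at 5.12 and 5.16 in WT. Itgb8 was the lowest chain, at 4.15 and 4.17 in DKO and at 3.70 and 4.25 in WT, and had the widest interval of the beta chains (-0.17 to 0.53). Epithelial markers showed 0 of 10 calls, to be read beside the same 14.8% of all tested genes. Their summed level was 14.09 to 14.20 in DKO and 14.15 to 14.29 in WT, with no marker listed at 0.

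Levels of different genes can be set side by side only per length. As mean rlog minus log2 of the exon length in kb, Itgb1 stood at 10.24 in DKO and 9.93 in WT, and Itgb2 at 9.94 in DKO and 10.18 in WT. Itgb1 minus Itgb2 was 0.30 in each DKO sample and -0.26 and -0.23 in the WT samples, so the order of this pair per length differed between the groups, with a change of 0.55. Outside the set, Itgb7, a chain of gut lymphocytes, stood above both, at 10.84 in DKO and 11.01 in WT. The order of Itgb1 and Itgb2 rests on the annotated exon lengths of 4081 and 3052 bases, and the change does not. Of the other beta chains of the set, next came Itgb3 at 8.02 in DKO and 7.87 in WT and Itgb5 at 7.83 in DKO and 7.84 in WT, then Itgb4 (5.48 in DKO, 5.34 in WT), Itgb6 (2.26 in DKO, 2.31 in WT) and Itgb8 (0.69 in DKO, 0.51 in WT). Among alpha chains of the set, Itgam aside, Itgal was highest (9.89 in DKO, 9.88 in WT), before Itgax (9.39 in DKO, 9.27 in WT) and Itga5 (8.09 in DKO, 7.92 in WT). Outside the set, Itga4 (8.76 in DKO, 8.80 in WT) and Itgae (8.35 in DKO, 8.12 in WT) lay between Itgax and Itga5. The matrix chains with the largest differences were low: Itga8 was at 2.56 in DKO and 1.74 in WT, and Itga11 at 3.28 in DKO and 2.52 in WT. Itgam was at 7.12 in DKO and 7.95 in WT by the length of all its exon bases. The same rlog set against only the 1574 bases it shares with no other gene gives 8.79 in DKO and 9.63 in WT. Reads over those bases were not counted apart, so the latter values hold only if no read over shared bases was counted.

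The adaptors divided within families. Kindlin-2 (Fermt2, ENSMUSG00000037712, chromosome 14, 45458795 to 45530118) is the kindlin of fibroblasts, muscle and endothelium. It was at 8.63 and 8.51 in DKO and at 7.37 and 6.94 in WT. All DKO values lay above all WT values, and the difference of 1.41 (SE 0.136, adjusted p = 5.43e-05 in limma), a fold of 2.66, was the largest of the set. Kindlin-3 (Fermt3), which blood cells use in its place, was at 11.18 and 11.36 in DKO and at 11.46 and 11.45 in WT. It did not pass (-0.19, adjusted p = 0.187 in limma), but did without DKO replicate 2 (-0.28, adjusted p = 0.0251). Per length of exon, Fermt2 minus Fermt3 was -2.39 and -2.69 in the DKO samples and -3.93 and -4.36 in the WT samples, a change of 1.60. The promoter stretches printed above differ in the same pair: that of Fermt2 is 72.1% G or C and holds a CArG box, and that of Fermt3 is 50.0% G or C and holds none. Of the 6 higher genes with a promoter entry, 2 held a CArG box and 2 the PU.1 box. Itgb6, which did not pass, held a CArG box as well. A link of these letters to expression was not tested.

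Talin-2 (Tln2), the talin of muscle and nerve, was at 6.80 and 6.88 in DKO and at 6.26 and 6.27 in WT, higher by 0.58 (SE 0.109, adjusted p = 0.0039 in limma). Talin-1 (Tln1), which is found in most cells and is the talin of leukocytes, had 12.37 and 12.47 in DKO and 12.51 and 12.34 in WT, with a 95% interval of the difference from -0.21 to 0.20. Per length Tln2 minus Tln1 was -6.47 and -6.49 in the DKO samples and -7.16 and -6.98 in the WT samples. Vinculin (Vcl, chromosome 14, 20929398 to 21033676), which reinforces the link of talin to actin, was at 9.93 and 9.99 in DKO and at 9.63 and 9.41 in WT, higher by 0.43 (SE 0.0916, adjusted p = 0.00762 in limma). It did not pass without WT replicate 2 (0.33, adjusted p = 0.106). Of its exon bases 25.5% lie opposite exons of Ap3m1, which differed by -0.0058. Ilk, the scaffold that joins beta chains to parvins, differed by 0.02 (95% interval -0.15 to 0.20), and 76.8% of its exon bases lie opposite Taf10. Taf10 was at 10.33 and 10.61 in DKO and at 10.68 and 10.75 in WT (-0.24, adjusted p = 0.131 in limma). The libraries were stranded, but the sources do not say whether counting used the strand, so reads of such opposite genes may be mixed.

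**Figure D3:**
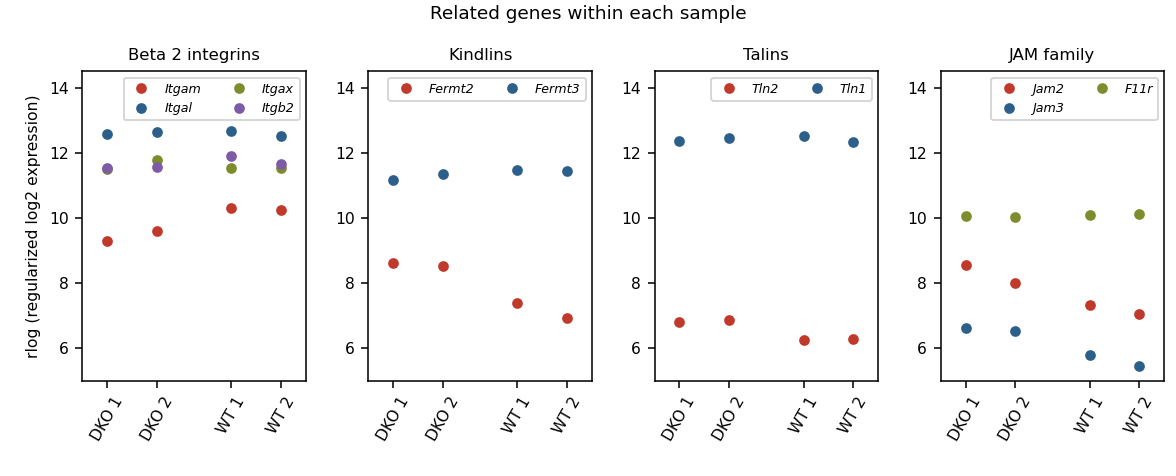
Rlog (y axis) of related genes in each sample (x axis, DKO replicates left, WT replicates right): the chains of beta 2 integrins, the kindlins, the talins and the junctional adhesion molecules. Fermt2, Tln2, Jam2 and Jam3 are higher and Itgam is lower in the DKO samples, while Itgal, Itgax and Tln1 have overlapping groups.

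Junctional adhesion molecules sit at contacts between endothelial or epithelial cells and bind leukocyte integrins. Jam2 (JAM-B, ENSMUSG00000053062, chromosome 16, 84774123 to 84825928), a vessel molecule that binds the alpha 4 chain, was at 8.55 and 7.99 in DKO and at 7.34 and 7.04 in WT. The difference of 1.08 (SE 0.166, adjusted p = 0.00104 in limma) is a fold of 2.12. The DKO samples lay apart by more than the WT samples, and the groups did not overlap. Jam3 (JAM-C), the partner of Jam2 and a ligand of Mac-1, was at 6.62 and 6.53 in DKO and at 5.79 and 5.46 in WT, higher by 0.95 (SE 0.131, adjusted p = 0.000534 in limma). Of its exon bases 36.2% lie opposite exons of Gm48796. F11r (JAM-A), which epithelium, platelets and leukocytes also carry and which binds LFA-1, was at 10.06 and 10.02 in DKO and at 10.09 and 10.13 in WT, and did not pass (-0.072, adjusted p = 0.621 in limma).

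Markers of stroma and vessels moved with these genes. These lists too were chosen with earlier results of these data known, so their counts are no independent support. Of all tested genes 9.92% were higher. All 10 fibroblast markers were higher in DKO (median 0.90, led by Col6a1 at 1.15 and Col6a2 at 1.2), with a summed level of 15.62 to 15.91 against 14.86 to 14.90 in WT. All 8 smooth muscle markers were higher (median 1.32, with Lmod1 at 1.42 and Synpo2 at 1.24), summing to 13.96 to 14.36 in DKO and to 12.27 to 13.17 in WT. The 11 endothelial markers were all higher (median 1.27, with Kdr at 1.55 and Emcn at 1.44), at 12.42 to 12.51 in DKO and 11.41 to 11.60 in WT, as were all 5 tested of 6 pericyte markers (median 1.03, with Pdgfrb at 0.88 and Cspg4 at 1.03), at 11.60 to 11.67 in DKO and 10.21 to 10.80 in WT. No marker of these 4 lists was listed at 0. Of the 10 higher adhesion genes, Fermt2 (1.41) lay above the range of these 4 medians and Jam2 (1.08) and Jam3 (0.95) within it. The other 7, from Itgb1 (0.30) to Itga8 (0.82), lay below it. Single markers reached 1.76 in smooth muscle and 1.55 in endothelium, above Fermt2. The largest were 1.20 in fibroblasts and 1.21 in pericytes, below Fermt2. The part of these cells in the results for the adhesion genes was not tested. Of the other marker lists, 4 of 7 tested mast cell genes were higher (Mcpt2 at 1.37, Mcpt1 at 1.19), 1 of 7 dendritic cell genes (Zbtb46 at 0.30), both tested genes of enteric nerve (Tubb3 at 0.46, Ret at 0.42) and 1 of 9 genes of dissociation stress (Fosb at 0.52). Some of these calls were lost in other fits: Zbtb46 passed in 1 of the 4 fits without a sample and passed neither without the trend (adjusted p = 0.0683) nor with quantile normalization (adjusted p = 0.0512). Tubb3 and Ret did not pass with quantile normalization (adjusted p = 0.133 and 0.0633) or without WT replicate 2 (adjusted p = 0.202 and 0.225). The call of Ret was also lost when DKO replicate 1 was left out (adjusted p = 0.0742), and that of Fosb when WT replicate 1 was (adjusted p = 0.106).

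The remaining integrin chains were looked up as a list. Itga1, a collagen receptor of smooth muscle and resident lymphocytes, was at 9.02 and 9.11 in DKO and at 8.35 and 8.29 in WT, higher by 0.75 (SE 0.0892, adjusted p = 0.000206 in limma), and lies 21.0 kb from Itga2, which did not pass. Itgb2l, a relative of Itgb2, was at 5.39 and 5.52 in DKO and at 6.57 and 6.80 in WT, lower by -1.23 (SE 0.123, adjusted p = 7.17e-05). The chains of gut lymphocytes did not pass: Itga4 differed by -0.047, Itgb7 by -0.17 and Itgae (CD103) by 0.23. Itgae was at 10.42 and 10.67 in DKO and at 10.12 and 10.51 in WT, and passed without DKO replicate 1 (0.35, adjusted p = 0.0302) and without WT replicate 2 (0.42, adjusted p = 0.036). Itga10, at 3.49 to 3.60 in the 4 samples, was under the minimum.

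Of 26 other components of focal adhesions 11 were higher and 1 was lower, against 9.92% higher and 4.85% lower of all tested genes. The smallest p were those of the tensins Tns1 (1.16) and Tns2 (1.05), which link integrin tails to actin, alpha-parvin (Parva, 0.90), a partner of Ilk, and nexilin (Nexn, 1.07), an actin-binding protein of muscle. Some relatives stood apart here too. Parva was at 9.55 and 9.39 in DKO and at 8.54 and 8.59 in WT. The leukocyte parvin Parvg was at 10.08 and 10.20 in DKO and at 10.28 and 10.33 in WT. Parvg did not pass (-0.17, adjusted p = 0.221 in limma). In the same way the PINCH protein Lims2 was higher by 1.07 and its relative Lims1 differed by -0.13 (adjusted p = 0.375), and the kinase Ptk2 (FAK) was higher by 0.41 while Ptk2b (Pyk2), the relative common in leukocytes, differed by -0.011. Parva, Parvg, Lims2, Lims1, Ptk2 and Ptk2b were set side by side after their values were seen. Other relatives in the list did not pass: the parvin Parvb (-0.0071), the tensin Tns3 (0.073) and the actinins Actn1 (0.26) and Actn4 (0.12). The lower gene was Vasp (-0.37, adjusted p = 0.0438), an actin regulator, which passed in 1 of the 4 fits without a sample. A list of 18 genes that regulate integrin activation from inside the cell mixes activators with inhibitors such as Itgb1bp1, Sharpin and Dok1. Of these 18 genes 0 were higher and 2 lower, to be read beside the same 9.92% and 4.85% of all tested genes. Both DKO samples lay below both WT samples for 11 of the 18, against 30.3% of all tested genes. They lay above for 0, against 25.0%, and the median difference of the list was -0.15. The lower genes were the small GTPase Rap1a (-0.39, adjusted p = 0.0124) and the adaptor Skap2 (-0.25, adjusted p = 0.0468). Rap1a did not pass without WT replicate 2 (-0.33, adjusted p = 0.123), and Skap2 passed in 1 of the 4 fits without a sample.

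Matrix ligands of integrins had the highest share of calls among the pathway lists. Of 19, 15 were higher and 1 lower, with a median of 0.83. Periostin (Postn) was higher by 1.73, the laminin chains Lama2 by 1.45 and Lama4 by 1.25, and Mfge8, a bridging ligand of Itgav receptors, by 0.87. Fibronectin (Fn1), the ligand of Itga5 and Itgav, was higher by 0.73 where Itga5 did not pass, and tenascin C (Tnc), a ligand of Itga9, by 0.96. The lower ligand was osteopontin (Spp1, -0.47, adjusted p = 0.0029 in limma), which macrophages make. Of 9 ligands on cells 2 were higher, the endothelial molecules Esam (1.46) and Madcam1 (0.85), the addressin bound by the Itga4 and Itgb7 pair. The ligands of LFA-1 and of the Itga4 receptors, Icam1 (0.21, adjusted p = 0.194 in limma) and Vcam1 (0.015), did not pass. Both selectins of endothelium were higher, Selp by 1.44 and Sele by 1.3, while Selplg, the ligand of Selp, had overlapping groups, and no other tested gene of the list of rolling and glycosylation passed. Of 12 genes of cell junctions 4 were higher: VE-cadherin (Cdh5, 1.27), the scaffold Tjp1 (0.55), Pard3 (0.59), which binds JAM tails, and claudin 5 (Cldn5, 0.73). Over the 98 tested pathway genes 35 were higher and 5 lower, with a median of 0.08. Of all tested genes 9.92% were higher and 4.85% lower. The pathway and marker lists share genes: Esam, Cdh5, Col1a1 and Cdh1 are each in a list of both kinds, so the lists are not independent.

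**Figure D4:**
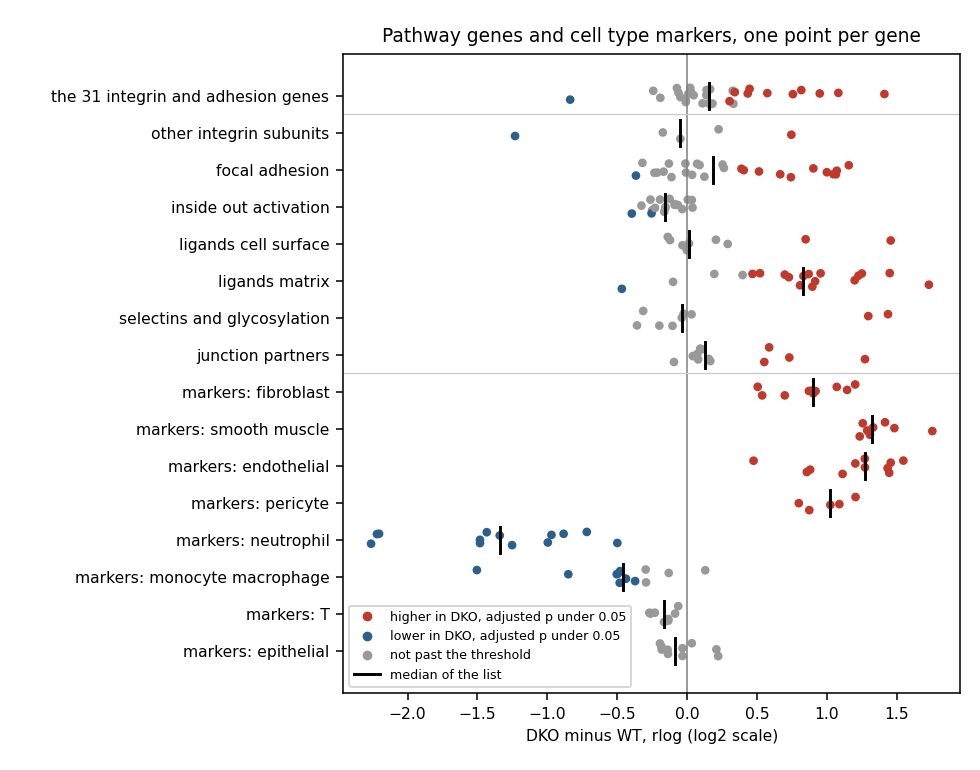
Difference of DKO minus WT in rlog (x axis, log2 scale) for each tested gene (1 point a gene, spread vertically at random within its row) of the 31 integrin and adhesion genes, of 7 pathway lists and of 8 cell type marker lists. Red points passed as higher and blue points as lower; black bars are medians, at 0.16 for the 31 genes, 0.83 for matrix ligands, 1.32 for smooth muscle markers and -1.34 for neutrophil markers.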

How the data were processed

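Stranded mRNA libraries of 4 samples were sequenced, per the labels' protocols. The treatment label set the group, and replicate numbers follow entry order only. The authors deposited log2 values, called rlog in the table's own name, a transform of DESeq2, which the submitters' processing notes list. GRCm38, STAR 2.5.4a, BWA 0.7.14-r1136, featureCounts, Subread 1.5.2, cutadapt 1.9.1 and bcl2fastq 2.17.1.14 are listed there too, without roles, parameters or annotation release. The authors' table has 2 more sample columns that match no labelled sample, and these were not used. Counts were not analysed here, so depth is unknown.

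Of 48526 identifiers 48058 matched a symbol and position in GENCODE vM21. The 13528 genes whose mean rlog reached 4 were fitted in R 4.3.3 with limma 3.58.1, with group as the only term, a mean-variance trend (8.9 prior and 2 residual degrees of freedom), two-sided tests and Benjamini-Hochberg adjustment at 0.05. Tables and figures were made in Python 3.11.15 (matplotlib 3.10.9, pandas 2.3.3). The fit was tested on simulated data. Exon length is the union of a gene's exons. The members and the 7 pathway and 14 marker lists were chosen with earlier results of these data known. The text names all members, Zfp683 and Prdm1, the other integrin chains, up to 4 called genes of each pathway list and up to 2 of each marker list by p, and others where a sentence counts or contrasts them, chosen after their values were seen. Alternatives were no minimum, a minimum of 6, no trend, a robust variance, median centring, quantile normalization and each sample left out.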

Additional observations from a re-analysis of the deposited data

How the results depend on the processing

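All 11 called genes of the set kept their direction in every alternative run, which were no minimum level, a minimum of 6, no variance trend, a robust variance, median centring, quantile normalization and each of the 4 samples left out, and all 11 passed with the robust variance. Itga8 and Itga11 lay under the minimum of 6 and have no value there. With no minimum the set had 0 higher and 0 lower genes (lowest adjusted p = 0.0616 in limma), the pathway lists 12 and 1, and all genes 181 and 25, where 25186 genes were tested. With a minimum of 6, 878 of all genes were higher. Without the trend 11 genes of the set were higher, as Itgad and Itga2b passed and Itgb1 did not. Lower pathway genes numbered 8 with median centring, 8 with a robust variance, 3 without the trend and 3 with quantile normalization, against 5. Without a single sample, higher genes of the set numbered 6 to 10 (6 without WT replicate 2) and lower genes 1 to 2, higher pathway genes 33 to 38 and lower ones 3 to 10, and over all genes 1008 to 1660 were higher and 324 to 1222 lower. There the spread of the lone sample is taken from the other group.

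Genes near 0 changed sign. With quantile normalization Itgb5 was at 0.029, Tln1 at 0.074, Selplg at 0.047, Prdm1 at 0.0020, Itga4 at 0.056 and Cd79b at -0.11. Without single samples Itgal ranged from -0.064 to 0.085, Itgax from -0.023 to 0.25, Itga3 from -0.050 to 0.11, Itga6 from -4e-06 to 0.096, Itgb5 from -0.11 to 0.087, Itgb6 from -0.19 to 0.097, Itgb8 from -0.091 to 0.46, Tln1 from -0.094 to 0.077, Ilk from -0.028 to 0.075, Selplg from -0.23 to 0.11 and Itga4 from -0.12 to 0.027. The cause was not tested. No paired analysis was possible because the labels give no replicate numbers.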
